A study of Homo sapiens with 4 samples.

Results

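Chromatin remodeller genes of the CHD, SMARC and ARID families were examined for IRF3 binding in MM1.S cells, an established human multiple myeloma line. The members were the 32 RefSeq GRCh38 protein-coding genes, of 20037 placed on the chromosomes, whose symbols are CHD followed by 1 digit, SMARC followed by a letter from A to E, or ARID followed by a digit from 1 to 5. They comprised 9 CHD, 13 SMARC and 10 ARID genes, and an IRF3 peak was given to a member when its summit lay in the gene span or within 1 kb of it. The series held 2 IRF3 ChIP libraries and 2 input libraries of untreated MM1.S cells grown in RPMI medium with serum and fixed with formaldehyde. Each ChIP library had 1 list of peaks called against input. The labels do not say whether the replicates came from separate cultures, so their spread may be technical.

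CHD, SWI/SNF and ISWI proteins are ATP-driven motors that slide, eject or exchange nucleosomes and so open or close DNA to transcription factors. SWI/SNF complexes are built around the ATPases SMARCA2 or SMARCA4, carry the SMARC core subunits and are directed to their sites in part by ARID1A, ARID1B or ARID2, several of which are tumour suppressors. The NuRD complex couples the ATPases CHD3, CHD4 or CHD5 to histone deacetylases. The remaining ARID proteins share an AT-rich DNA interaction domain and act as DNA- or RNA-binding regulators. IRF3 is a transcription factor best known for switching on interferon genes after viral infection, and it binds repeats of GAAA.

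The peak calls rested on 38568845 ChIP tags in replicate 1 and 46474586 in replicate 2. The members took in 113 of 41880 peaks in replicate 1 and 99 of 41666 peaks in replicate 2. Where a peak of replicate 1 and one of replicate 2 had 1 bp or more in common, they were joined into a shared region, and the members held 84 of the 32246 shared regions. A further 33 member regions came from 1 replicate alone, 22 from replicate 1 and 11 from replicate 2, with fold enrichments between 2.19 and 6.28. As a check of the cell type, a shared region stood at the start site of 8 of 8 plasma cell marker genes, 0 of 4 B cell, 1 of 4 T cell and 0 of 4 myeloid marker genes. The share over all protein-coding genes was 48.9%, so lists of 4 to 8 genes give only a rough check. The T cell gene was CD3E, with low fold enrichments of 2.50 and 2.63. The plasma cell markers ran between IRF4, with fold enrichments of 20.1 and 52.4, and PRDM1, with 4.07 and 6.09. A peak shows antibody recovery at a site and not how strongly the gene is expressed.

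The promoters below carry the main contrasts among the members. They show the strongest regions (CHD4, ARID5A, ARID1A), the promoters with IRF-type repeats (SMARCB1, SMARCA5, SMARCAL1) and a CCAAT-rich promoter with a strong region just upstream (ARID4A). Each run is the 250 bases before a RefSeq start of build GRCh38.p14, written 5′ to 3′ on the gene's strand, and 24 of the 32 members had an entry. Capitals mark GGGCGG (GC box) and CCGGAAG (ETS) in CHD4, GGGCGG and CCAAT in ARID5A, GGGCGG in ARID1A, the IRF tandem (GAAA, any 2 bases, GAAA) in SMARCB1, the tandem and the ETS-IRF composite (GGAA, any 2 bases, GAAA) in SMARCA5, the composite in SMARCAL1 and CCAAT in ARID4A, on either strand.
CHD4 (chr12:6606452-6606701, minus strand): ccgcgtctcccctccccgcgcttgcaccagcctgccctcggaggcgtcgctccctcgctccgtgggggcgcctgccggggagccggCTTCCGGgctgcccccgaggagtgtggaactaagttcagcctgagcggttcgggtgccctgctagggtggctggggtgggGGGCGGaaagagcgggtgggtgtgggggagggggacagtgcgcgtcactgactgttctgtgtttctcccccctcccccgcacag
ARID5A (chr2:96536502-96536751, plus strand): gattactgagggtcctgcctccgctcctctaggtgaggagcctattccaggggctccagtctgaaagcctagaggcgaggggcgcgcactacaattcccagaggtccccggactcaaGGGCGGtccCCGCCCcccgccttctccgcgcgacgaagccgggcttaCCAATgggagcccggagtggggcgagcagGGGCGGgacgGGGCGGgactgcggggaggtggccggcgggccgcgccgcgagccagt
ARID1A (chr1:26695765-26696014, plus strand): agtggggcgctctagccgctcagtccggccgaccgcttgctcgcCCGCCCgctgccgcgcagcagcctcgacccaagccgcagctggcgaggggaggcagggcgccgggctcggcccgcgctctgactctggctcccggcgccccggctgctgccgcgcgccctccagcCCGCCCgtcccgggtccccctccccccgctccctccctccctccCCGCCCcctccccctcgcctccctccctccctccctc
SMARCB1 (chr22:23786716-23786965, plus strand): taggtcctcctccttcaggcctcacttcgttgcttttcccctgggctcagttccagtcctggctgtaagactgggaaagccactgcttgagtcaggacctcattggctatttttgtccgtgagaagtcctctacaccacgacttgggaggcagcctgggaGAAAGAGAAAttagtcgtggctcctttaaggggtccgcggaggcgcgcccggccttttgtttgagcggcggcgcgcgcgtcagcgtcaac
SMARCA5 (chr4:143513452-143513701, plus strand): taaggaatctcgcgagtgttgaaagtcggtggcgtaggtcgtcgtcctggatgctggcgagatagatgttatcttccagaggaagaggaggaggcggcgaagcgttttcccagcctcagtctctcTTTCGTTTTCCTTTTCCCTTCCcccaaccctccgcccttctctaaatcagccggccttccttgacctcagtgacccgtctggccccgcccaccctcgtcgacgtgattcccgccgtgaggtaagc
SMARCAL1 (chr2:216412234-216412483, plus strand): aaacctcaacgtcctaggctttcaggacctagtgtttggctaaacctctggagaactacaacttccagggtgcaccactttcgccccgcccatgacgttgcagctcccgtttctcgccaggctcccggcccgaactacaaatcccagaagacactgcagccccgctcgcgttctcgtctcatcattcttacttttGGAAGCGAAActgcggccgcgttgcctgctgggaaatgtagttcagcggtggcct
ARID4A (chr14:58298305-58298554, plus strand): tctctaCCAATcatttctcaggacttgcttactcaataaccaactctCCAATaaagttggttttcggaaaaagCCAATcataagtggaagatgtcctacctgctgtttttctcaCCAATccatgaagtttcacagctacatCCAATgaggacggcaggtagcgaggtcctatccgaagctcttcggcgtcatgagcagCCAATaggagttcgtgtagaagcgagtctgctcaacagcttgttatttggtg

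Most remodeller genes had an IRF3 region at the start site. A shared region had its summit within 1 kb of the start end of the gene span in 26 of 32 members (81.2%), against 48.9% of all protein-coding genes. With a fold enrichment of at least 5 in both replicates there were 18 (56.2%), against 27.9%, and with at least 10 there were 7 (21.9%), against 4.85%. The direction of transcription is known for the 24 members with a RefSeq promoter entry, and for the others either end of the span was accepted. The exceptions were ARID1B, ARID3C, CHD3, CHD5, SMARCA1 and SMARCD3. Related genes are not independent of each other and the list was chosen with earlier results known, so these shares are a description and were not tested.

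Fold enrichment, the authors' ratio of ChIP pileup to local input background at a summit, varied widely among the 26 members. It ran between 2.68 and 85.1 in replicate 1 with a median of 7.30, where all 9793 genes with a start-site region had a median of 5.55. In replicate 2 it ran between 3.97 and 84.3 with a median of 9.27, where all genes had 8.52. On a percentile scale of strength among those genes, in which a region is ranked by the worse of its ranks in the replicates and 100 is the strongest, the members had a median of 70.4 with quartiles of 25.2 and 86.5. The strongest 25% of regions included 11 of the 26 members (42.3%) and the weakest 25% included 7 (26.9%). Replicate 2 was higher in 24 of 26 members, with CHD4 and CHD7 the exceptions, and in 90.3% of all genes. The median log2 ratio of replicate 2 to replicate 1 was 0.595 in the members and 0.628 in all genes. The range of a gene, as used below, runs between its replicate values and so holds this offset. Overlap of such ranges is a description and does not measure noise.

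**Figure D1:**
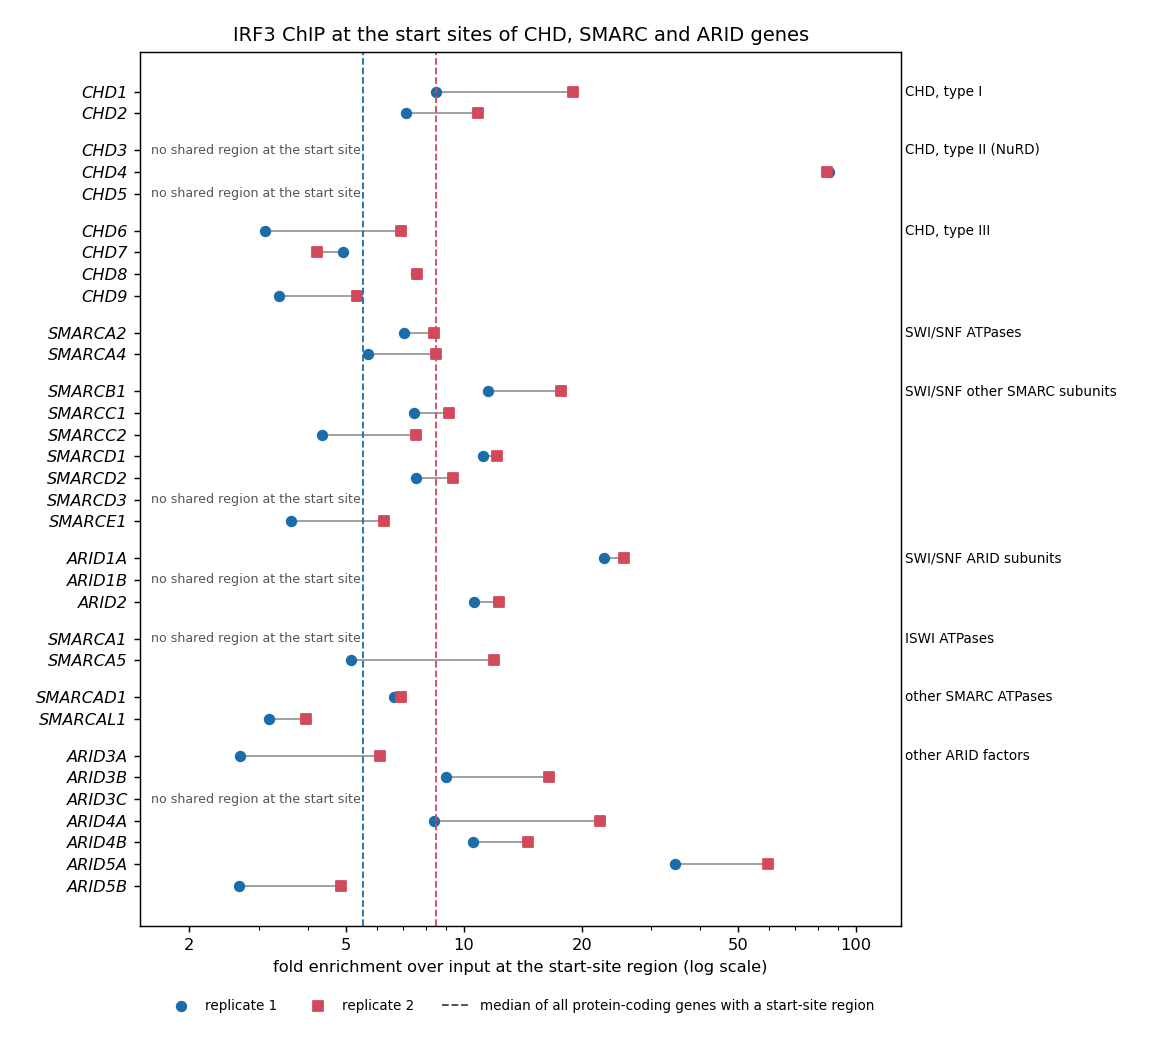
Fold enrichment over input at the start-site region of each gene (log axis) in replicate 1 (circles) and replicate 2 (squares), with the medians of all 9793 protein-coding genes with such a region as dashed lines. CHD4 stands at 85.1 and 84.3 and ARID5A at 34.6 and 59.7, while 6 genes have no shared region there.

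Among the CHD genes the type II subfamily, the ATPases of NuRD, held the extremes. The replicate 1 value at CHD4 was 85.1 and the replicate 2 value 84.3, with pileups of 838 and 603 fragments. The value in replicate 1 was the highest of all 41880 peaks of that list, and that in replicate 2 ranked 12 of 41666. The region was 3486 bp long (chromosome 12, 6605463 to 6608948), its summits in the replicates lay 2 bp apart, and they stood 0.569 kb upstream of the start end, so that CHD4 was not called with a reach of 500 bp. CHD4 has a further RefSeq start 928 bp inside the span, and the sequence shown above lies before that one and within the region. CHD3 and CHD5, its closest relatives, had no peak in either replicate within the gene or 1 kb around it. The nearest shared summit was 27.0 kb from the start of CHD3 and 19.2 kb from an end of CHD5, a gene known mainly from neurons.

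The type I pair, CHD1 and CHD2, had regions above the median of all genes. CHD1, which binds methylated histone H3 at active genes, had 8.49 and 19.0, at percentile 86.6. CHD2 had 7.12 and 10.9, at percentile 76.3, with summits of both replicates at the same base 95 bp downstream of the start. CHD1 was higher in each replicate, but the ranges of the genes overlap.

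The type III genes, among them CHD7, which is mutated in CHARGE syndrome, and CHD8, which is linked to autism, had weaker regions. CHD8 was the strongest with 7.57 and 7.59, at percentile 61.3. CHD7 had 4.93 and 4.22, CHD9 3.39 and 5.35, and CHD6 3.12 and 6.91. These lie at percentiles 22.4, 15.6 and 11.4. In both replicates the values of these 3 genes were below those of CHD1 and CHD2. CHD7 had a further shared region at the same end, and CHD8 and CHD9 each also had one at a further RefSeq start inside the gene.

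The catalytic SWI/SNF genes were alike in their values. SMARCA4, which encodes BRG1, had 5.69 and 8.48, and SMARCA2, which encodes its alternative BRM, had 7.04 and 8.41. They stood at percentiles 56.9 and 67.8, and their ranges overlap. The region at SMARCA2 was 3186 bp long, and the strongest summits of the replicates lay 464 bp apart there and 486 bp apart at SMARCA4. Both calls were lost when replicate summits had to lie within 200 bp of each other.

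Of the 7 other SMARC subunits of SWI/SNF, 6 had a start-site region. SMARCB1, the core subunit lost in rhabdoid tumours, was the strongest with 11.5 and 17.7, at percentile 94.8, and its summit stood 146 bp downstream of the start. SMARCD1 followed with 11.2 and 12.2, at percentile 86.0, and its summit stood 31 bp from the start. The scaffold genes SMARCC1 and SMARCC2 had 7.49 and 9.15, and 4.35 and 7.54, with SMARCC1 higher in each replicate and ranges that overlap. SMARCD2 had 7.58 and 9.38, and SMARCE1, which encodes an HMG-box subunit, 3.64 and 6.28. The calls at SMARCC2 and SMARCE1, whose replicate summits lay 392 and 547 bp apart, were lost when these had to lie within 200 bp. SMARCD3, the third gene of the SMARCD set, had no peak in either replicate, and its nearest shared summit was 44.5 kb away. The set thus held 2 occupied genes whose lowest value was 7.58 and 1 gene with nothing called.

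The ARID subunits, which direct SWI/SNF to its sites, had strong regions at ARID1A and ARID2. ARID1A had 22.8 and 25.6, at percentile 98.0, in a region of 2634 bp (chromosome 1, 26695043 to 26697676) whose summits lay 29 bp apart. ARID2, a subunit of the polybromo form of the complex, had 10.6 and 12.3, at percentile 86.3, but its replicate summits lay 407 bp apart and the call was lost when they had to lie within 200 bp. ARID1B, the paralog of ARID1A, had no shared region within 1 kb of its start end. A second RefSeq start of ARID1B lies inside the gene, and a region with 6.98 and 9.21 had its summit 68 bp from it and 1.42 kb from the start end. Counting such further starts gave 27 of 32 members (84.4%), against 52.4% of all genes. In both replicates the ARID1A values exceeded those of this ARID1B region.

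ISWI motors space nucleosomes into regular arrays. SMARCA5, the ISWI ATPase of most cells, had 5.17 and 12.0, a difference between the replicates of 1.21 on the log2 scale. SMARCA1, its relative, had no region at the start and a single weak shared region inside the gene, with 3.10 and 2.46. Both SMARCA5 values exceeded both of SMARCA1's. The remaining ATPases were SMARCAD1 with 6.65 and 6.91, and SMARCAL1, which remodels stalled replication forks, with 3.19 and 3.97. The region at SMARCAL1 was the shortest among the members, at 396 bp.

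Among the other ARID factors, ARID5A was far above its relatives. ARID5A, an RNA-binding protein known to stabilise interleukin-6 mRNA, had 34.6 and 59.7, with pileups of 894 and 693 fragments. Its region (chromosome 2, 96536302 to 96539467) ranked 10 among all genes with one, and the summits lay 3 bp apart, 125 bp downstream of the start. ARID5B, a transcriptional regulator and leukaemia risk gene, had only 2.68 and 4.86 in a region 641 bp downstream of its start end, at percentile 5.09. Its stronger regions lay inside the gene.

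The paralogs ARID4A and ARID4B, which encode partners of the retinoblastoma protein in the SIN3 deacetylase complex, both had strong regions. ARID4A had 8.38 and 22.2, the widest replicate difference among the members at 1.41 on the log2 scale. ARID4B had 10.5 and 14.6, inside the range of ARID4A. With a reach of 500 bp neither ARID4B nor ARID5B was called. ARID3B, a factor close to ARID3A, had 9.03 and 16.5, a mean of 12.7, which became 4.73 when replicate summits had to lie within 200 bp of each other. ARID3A, which was first described in B cells as a binder of the immunoglobulin heavy-chain locus, had 2.69 and 6.10, at percentile 5.28, and both values were below those of ARID3B. Its call was lost under that 200 bp rule. ARID3C had no start-site region, and its single shared region lay 12.6 kb from the start, beyond the far end of the gene and within 1 kb of an end of DCTN3.

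**Figure D2:**
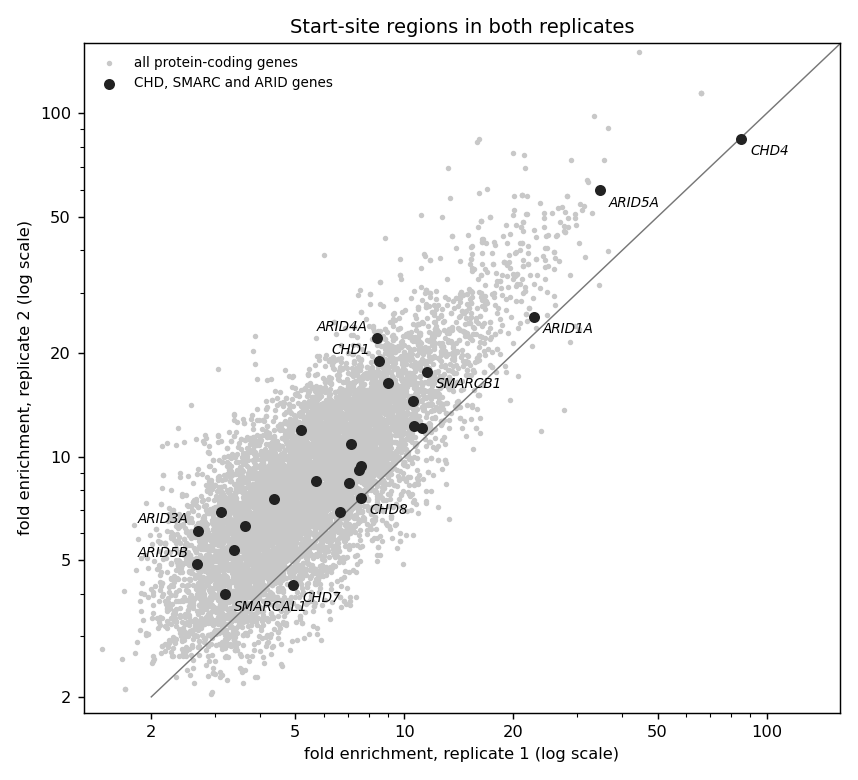
Fold enrichment of start-site regions in replicate 1 and replicate 2 (log axes) for all 9793 protein-coding genes with one (grey) and for the 26 remodeller genes (black), with the line of equal values. CHD4 lies on that line at 85.1 and 84.3, while ARID4A, at 8.38 and 22.2, lies above it.

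The start-site regions of the members were longer than usual and their summits stood farther from the start. Their median length was 1458 bp, against 1057 bp for all genes, and 7 of 26 (26.9%) were at least 2 kb long, against 9.22%. The median distance of the summit from the start end was 291 bp, against 154 bp for all genes. Within 200 bp lay 11 of 26 (42.3%), against 64.3%. Of the 19 occupied members with a known strand, 8 had the summit upstream (42.1%), against 27.9% of all genes. Summits of the replicates lay within 100 bp of each other in 19 of 26 members (73.1%), against 81.3% of all genes. Among the 7 members with summits over 200 bp apart were SMARCE1 at 547 bp, ARID3B at 500 bp and SMARCA4 at 486 bp.

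At 9 of the 26 members an end of another annotated gene also lay within 1 kb of the summit. At 8 of them it was a non-coding gene, such as CHD1-DT at CHD1, SMARCA5-AS1 at SMARCA5, SMARCAD1-DT at SMARCAD1, SMARCAL1-AS1 at SMARCAL1 and PSMA3-AS1 at ARID4A. The SMARCC2 region also lay at a transfer RNA gene, and that of ARID1A at the protein-coding LOC124900417. A ChIP peak has no strand, so at these places binding cannot be assigned to either gene. The same share was not counted over all genes with a start-site region, so whether 9 of 26 is usual is unknown.

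The promoter sequences held IRF-type repeats in a minority of members. The search covered 300 bases, 250 before and 50 after the RefSeq start nearest to the start end, on both strands, in the 24 members with an entry and in 15842 protein-coding genes. The IRF core (AA, any 2 bases, GAAA), which every tandem and composite match also contains, was present in 5 members (20.8%), against 18.9% of all promoters. The tandem was present in SMARCA5 and SMARCB1 (8.33%), against 3.18% of all promoters, and the composite in SMARCA5 and SMARCAL1 (8.33%), against 2.51%. With so few members these shares are counts of single genes.

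SMARCA5 had the densest cluster. Its tandem matches TTTCGTTTTC and TTTCCTTTTC begin 125 and 119 bases before the start and its composite match TTTCCCTTCC begins 113 bases before it, all against the direction of the gene, so that the matches overlap into 1 pyrimidine-rich run. Of all promoters, 4 (0.0252%) held at least 2 tandem matches together with a composite match. This combination was set from the matches seen in SMARCA5, so the small share is a description only. SMARCB1 had GAAAGAGAAA 90 bases before the start, and SMARCAL1 had GGAAGCGAAA 55 bases before it. Their fold enrichments nevertheless spanned the scale, with SMARCB1 at percentile 94.8, SMARCA5 at 47.9 and SMARCAL1 at 12.5. Over all genes, 47.4% of promoters with a tandem match and 57.2% of those with a composite match had a start-site region. For promoters with either match the share was 51.2%, against 51.1% of those with neither.

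The windows at the strongest member regions held no such repeat. CHD4 and ARID1A had none of the 3 IRF-type patterns, and neither had ARID5A. The window at CHD4 misses the summit, which lies far upstream of that start, and the window at ARID5A ends before its summit at 125 bp downstream, so sequence under these summits was not searched. These 3 promoters held GC boxes, which were present in 17 of 24 members (70.8%), against 58.3% of all promoters and 72.6% of those with a start-site region. ARID5A had 4 of them and a CCAAT box, ARID1A had 3, and CHD4 had 1 together with an ETS match. The ETS letters were present in CHD4 and SMARCA2 (8.33%), against 14.2% of all promoters and 22.7% of those with a start-site region. CCAAT was present in 7 members (29.2%), against 36.4% of all promoters. ARID4A was the member richest in CCAAT, with 6 matches, and this count was taken as the cutoff for all promoters. It was reached by 18 of them (0.114%), of which 15 had a start-site region, with a median percentile of 43.4. The shared region of ARID4A ends at base 58298304 of chromosome 14, next to the first base of the sequence shown. No member held the NRF1 palindrome or the CRE letters TGACGTCA, which 1.77% and 2.56% of all promoters held. The YY1 motif was found in SMARCD1 alone (4.17%), against 1.88% of all promoters, and TATAAA in ARID5B alone (4.17%), against 9.75%. The median GC content of the member windows was 66.3%, against 62.7% for all promoters, and ARID1B at 37.7% and SMARCAD1 at 41.3% were the lowest. A match is a description of letters and not a binding site, and the windows leave out most of each region.

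Away from the start sites, shared regions were frequent inside some of the long genes. A shared region within the span plus 1 kb was found in 29 of 32 members (90.6%), against 62% of all genes, and CHD3, CHD5 and SMARCD3 had none. A region away from the start was found in 19 members (59.4%), against 30.5%. Among spans of at least 150 kb the shares were 77.8% of 9 members and 73.9% of 2043 genes. From 50 to 150 kb they were 69.2% of 13 members and 49.8% of 4226 genes. Under 50 kb they were 30% of 10 members and 18.1% of 13768 genes. The members are long, with a median span of 75.2 kb against 24.1 kb for all genes. Per 100 kb of span the members had 1.68 such regions, against 1.03 for all genes. In spans of at least 150 kb the density was 1.73 in 9 members and 0.790 in 2043 genes. These 9 members held 35 such regions, 21 of them in ARID1B and ARID5B, so their density rests largely on those genes. From 50 to 150 kb the density was 1.69 in 13 members and 1.19 in 4226 genes. In spans under 50 kb it was 1.19 in 10 members and 1.49 in 13768 genes. These counts were not tested.

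Of the 55 regions away from the starts, 21 lay in ARID1B and ARID5B. ARID5B had 11, or 5.63 per 100 kb, and ARID1B had 10, or 2.30 per 100 kb. CHD9 followed with 6 and ARID1A with 4. These regions were weaker than those at the starts, with median fold enrichments of 4.65 and 4.69, against 4.06 and 4.39 in all genes. A fold enrichment of at least 5 in both replicates was reached by 18 of them (32.7%), against 22.9% of those in all genes. Inside stranded members 68.2% of such regions (30 of 44) lay in the first part of the span up to its midpoint, against 55.1% of those in all genes.

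The strongest region inside a member was in ARID1B, 245 kb from the start end (chromosome 6, 157020815 to 157022456), with 12.2 and 19.9. Both values exceeded those of the region at the second ARID1B start, 6.98 and 9.21. ARID3B had 10.4 and 11.3 at 5.18 kb from an end, where its start-site region had 9.03 and 16.5. In CHD7, which had weak values at its end, a region well inside the gene had 6.51 and 9.33, higher in both replicates than the 4.93 and 4.22 at the end. ARID5B had 5.84 and 6.95 at 86.4 kb, ARID1A 6.50 and 6.84 at 48.3 kb, and CHD9 7.78 and 6.72 at 44.3 kb. For CHD9 these values were higher in both replicates than the 3.39 and 5.35 at its start end. A further ARID1A region 6.69 kb from the start had 5.57 and 6.51, and SMARCA2 had 5.29 and 6.39 at 57.8 kb.

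Further RefSeq starts lay within 1 kb of 5 of the 55 regions. Besides ARID1B, they were in ARID5B 148 kb from the start end (5.35 and 7.57, summit 117 bp from that start), CHD9 at 76.1 kb (5.03 and 7.13, 81 bp), SMARCA2 at 143 kb (2.51 and 3.72, 358 bp) and CHD8 at 19.0 kb (2.43 and 3.13, 129 bp). In ARID5B and CHD9 the inner start had higher values in both replicates than the region at the start end, which had 2.68 and 4.86 in ARID5B and 3.39 and 5.35 in CHD9. In CHD8 and SMARCA2 the inner start had lower values than the outer one in both replicates.

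**Figure D3:**
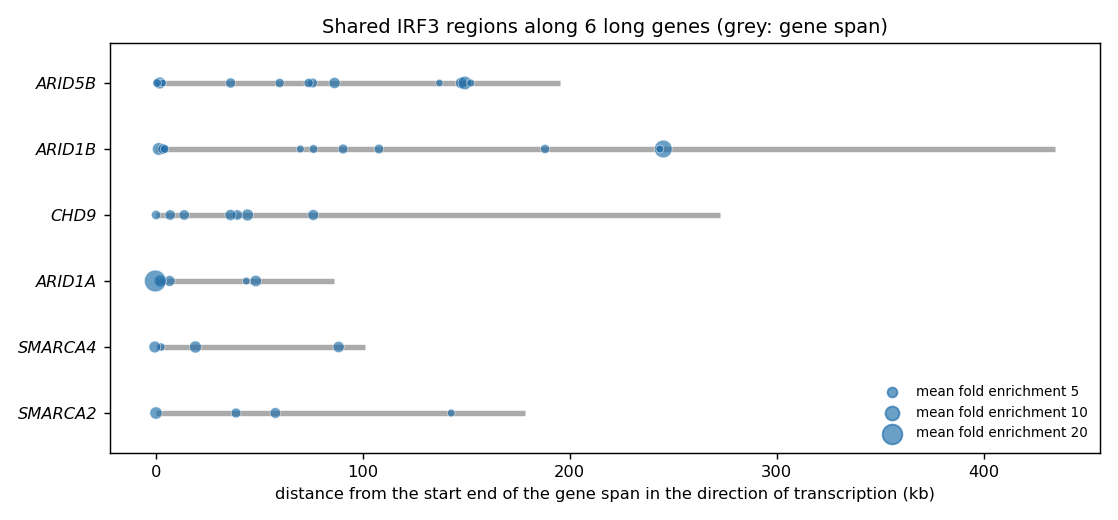
Shared IRF3 regions along 6 long remodeller genes, with distance from the start end in kb on the horizontal axis, the gene span as a grey line and the area of each circle proportional to the mean fold enrichment of the replicates. ARID1A is strongest at its start, whereas the largest circle of ARID1B lies 245 kb inside the gene. The 6 genes are a selection and do not stand for all long members. Of the members of at least 150 kb that are not drawn, CHD7 and ARID2 had 2 regions each away from the start. CHD6 had 1, and SMARCC1 and ARID4B had 0.

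Of the single-replicate regions of the members, 2 lay at a start site, both at genes that also had a shared region there. The same was not counted over all genes, so whether this number is usual is unknown. ARID4A had a replicate 2 peak of fold enrichment 5.14 at 161 bp downstream of the start, and ARID5B a replicate 2 peak of 3.01 at 35 bp. The highest single-replicate value was 6.28, in replicate 1 inside ARID1B.

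Partners of the same complexes were also mostly occupied. Of 80 genes on 5 lists, 69 (86.2%) had a shared start-site region, against 48.9% of all protein-coding genes. Among 17 other SWI/SNF subunits 14 had one, led by ACTB, the actin subunit and a highly expressed cytoskeletal gene, with 24.3 and 49.7, and PBRM1, the polybromo subunit, with 13.3 and 17.1. ACTL6B, BCL7A and DPF1 had none at the start site, and of these ACTL6B and DPF1 are known as subunits of neuronal complexes. In the span plus 1 kb 15 of the 17 had a shared region, against 62% of all protein-coding genes. Among 12 NuRD partners 10 had one, led by the histone chaperone gene RBBP7 (13.1 and 22.95) and MBD3 (13.9 and 13.9), and CDK2AP1 and MTA1 had none. The median percentile of the NuRD list was 33.0, and CHD4 itself stood at 99.96.

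Occupancy on the remaining lists ran between 66.7% and 96.6%. Among 29 subunits of INO80, SRCAP and EP400 complexes 28 had a region, with a median percentile of 42.3, and MRGBP was the exception. ING3 (12.9 and 24.9) and INO80C (13.5 and 15.8) were the strongest. Of 9 ISWI partners 6 had one, led by CHRAC1 (9.88 and 15.04) and BPTF (8.09 and 12.8). BAZ2A, CECR2 and RSF1 had none at the start site. All 9 held a shared region in the span plus 1 kb, against 62% of all protein-coding genes. Of 13 other SNF2-type ATPase genes 11 had one at the start site, led by RAD54L2 (7.10 and 15.6) and ERCC6 (7.04 and 11.1), with ERCC6L and RAD54B the exceptions. In the span plus 1 kb 12 of the 13 had one, against the same 62%. CHD4, ARID5A and ARID1A were stronger by rank than every partner except ACTB, which stood at percentile 99.7, above ARID1A.

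**Figure D4:**
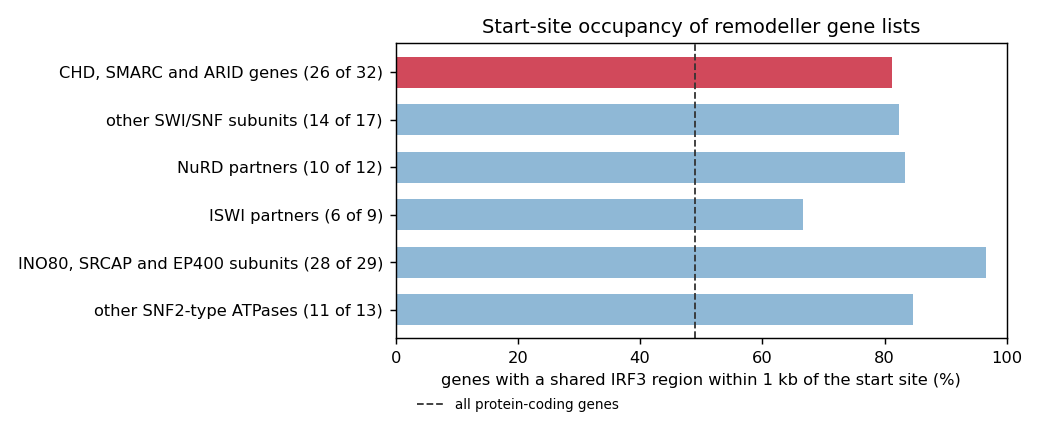
Share of genes with a shared IRF3 region within 1 kb of the start site, in percent, for the remodeller genes and 5 lists of partner genes, with all protein-coding genes as a dashed line at 48.9%. All 6 bars lie above the line, between 66.7% for ISWI partners and 96.6% for INO80, SRCAP and EP400 subunits.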

How the data were processed

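IRF3 ChIP-seq of untreated MM1.S cells was analysed from the deposited peak lists. Input DNA was used by the authors in peak calling and has no table of its own here. Per the file headers, narrow peaks were called with MACS2 2.1.2 for each ChIP library against 1 input library at a q-value cutoff of 0.05, with duplicate tags kept at that step. The submitters' processing notes list MACS2 2.1.1, deepTools 3.3.1, SAMtools 1.2, Picard 2.6.0, BWA 0.7.15 and GRCh38 with no role for each. Whether duplicates or problem regions were removed earlier is not stated in the labels or headers. The deposited fold enrichment is a ratio of ChIP pileup to local input background, the deposited pileup is a signal (stacked fragments at the summit), and the deposited −log10 p and −log10 q have damaged column names and were told apart by MACS2 column order and by their values. All are the authors' values per peak, used to describe and rank peaks within a list.

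Overlapping peaks of both replicates were joined in pandas 2.3.3 and numpy 2.4.6 (Python 3.11.15), and the strongest peak gave each replicate's value and the summit. Genes, strands and promoters came from RefSeq GRCh38.p14 tables. The start site was the start end of the span by strand, and starts listed inside genes were an added alternative, chosen after the data were seen. Other alternatives changed the reach around starts, the overlap or summit distance that joins peaks, the fold or q floor, the ranking value, the start definition and the replicates used. The pairing and gene assignment were checked on simulated peaks. Members and lists were chosen with earlier results of these data known, and no test was made, since a single group has no contrast. All members are accounted for, and named values follow a fixed rule (start-site regions, members without one, the 10 strongest regions away from starts, the 2 best-ranked genes and up to 3 unoccupied genes of each partner list). Genes named for further starts, IRF-type matches or CCAAT matches were chosen after their values were seen. Depth per region is unknown, so no counting interval is given.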

Additional observations from a re-analysis of the deposited data

How the results depend on the processing

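The number of members with a start-site region was 26 and ranged between 18 and 27 over all alternatives run. It was 22 with summits within 500 bp of the start (ARID2, ARID4B, ARID5B and CHD4 were lost), 20 with replicate summits within 200 bp of each other, 18 at a fold enrichment of at least 5 and 26 with either replicate left out. The number with a region in the span ranged between 23 and 29, and the share over all genes between 35.9% and 67.0%. The number of shared regions in member spans fell to 36 at a fold enrichment of at least 5, against 84, because the weaker regions are removed, and was 99 without replicate 1 and 113 without replicate 2, where every peak of 1 library counts. The median percentile of the members, 70.4, was between 60.4 and 73.5 with a replicate left out and between 63.5 and 75.3 in the other settings. Requiring replicate summits within 200 bp removed the start-site regions of ARID2, ARID3A, SMARCA2, SMARCA4, SMARCC2 and SMARCE1 and moved the ARID3B mean to 4.73, against 12.7. These were the 7 members whose strongest replicate summits lay over 200 bp apart, between 253 bp at ARID3A and 547 bp at SMARCE1. ARID3B had 3 shared regions at its start and kept a call. Why the summits lie apart was not tested. Taking the peak nearest to the start moved no mean of the 26 members by more than the standard deviation of its replicates. The ARID4B mean changed from 12.5 to 12.1. No paired analysis was possible because the inputs, which share replicate numbers with the ChIP libraries, were used only in peak calling.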
